A study of Drosophila melanogaster with 4 samples.

Results

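The genes described here were 7 components of the endoplasmic reticulum (ER) of Drosophila melanogaster, chosen by name: the luminal chaperones Hsc70-3, Gp93, Calr and Pdi and the membrane components Sec61alpha, Sec63 and SsRbeta. They were 7 of 17677 nuclear genes with an entry in the count tables, and all 7 were among the 3003 genes with enough reads to be tested. Footprints were sequenced from larvae at the third larval instar, 4 days after egg laying (dael), in 2 libraries from control larvae (wDah, Angel+/+) and 2 from DmAngel KO larvae (Angel-/-). The knockout was made with CRISPR through 2 guide RNAs in a nos-Cas9 germline and backcrossed for 6 generations to a white background, and the legend for this experiment gives one knockout line, KO-1, so that differences are between this line and wDah. A crude mitochondrial pellet was prepared from whole larvae, lysed and digested with RNase T1, and RNA from the monosome peak of a sucrose gradient was sequenced as small RNA. Whole larvae pool all tissues, so fewer cells of a type and fewer footprints per cell cannot be told apart in these libraries. The series text speaks of technical replicates and the paper of biologically independent samples, so p-values measure the spread between these libraries, which may be technical.

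Proteins that are secreted or built into membranes are made by cytosolic ribosomes docked on the ER, and they enter the ER through the Sec61 channel while they are being made. Inside, an Hsp70 (BiP) and an Hsp90 bind unfolded chains, the lectin chaperone calreticulin holds newly glycosylated ones, and protein disulfide isomerase forms and reshuffles their disulfide bonds. In fly larvae the fat body and the salivary glands are known for heavy secretion of storage and glue proteins.

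The 4 libraries held between 1789947 and 8227127 reads. Reads on nuclear transcripts, from which all values below come, were 1324943 and 457054 in control replicates 1 and 2 and 566679 and 518033 in DmAngel KO replicates 1 and 2. That was 31.9% and 25.5% of all reads in the controls, against 6.93% and 6.30% in the knockouts, the remainder being on mtDNA-encoded transcripts. Levels are given as RPM, that is reads scaled to a library total of 1000000 reads on nuclear transcripts, and a count of 3 reads corresponded to between 2.26 and 6.56 RPM. Whether a read on a nuclear transcript came from a docked cytosolic ribosome or from other RNA in these gradient fractions was not tested. The deleted gene, angel, had 2 and 0 reads in the controls, against 1 and 1 in the knockouts, too few to check the labels.

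In DmAngel KO larvae the footprints of 5 of the 7 genes fell: Pdi, Sec61alpha, Calr, SsRbeta and Gp93. The falls were 4.02-, 4.01-, 3.89-, 3.40- and 3.24-fold after scaling with TMM factors, which set the bulk of genes at no change. On plain RPM the ratio of the group means, control to DmAngel KO, was 2.48 for Pdi, 2.47 for Sec61alpha, 2.40 for Calr, 2.09 for SsRbeta and 2.01 for Gp93. Hsc70-3 and Sec63 did not pass the test. Over all 3003 genes tested, 210 (6.99%) were called lower and 125 (4.16%) higher by edgeR's quasi-likelihood test at a Benjamini-Hochberg adjusted p of 0.05, and none of the 7 ER genes was called higher by edgeR or DESeq2. The 5 lower calls were also made by DESeq2. The plot of the 4 libraries shows each gene on the RPM scale.

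**Figure D1:**
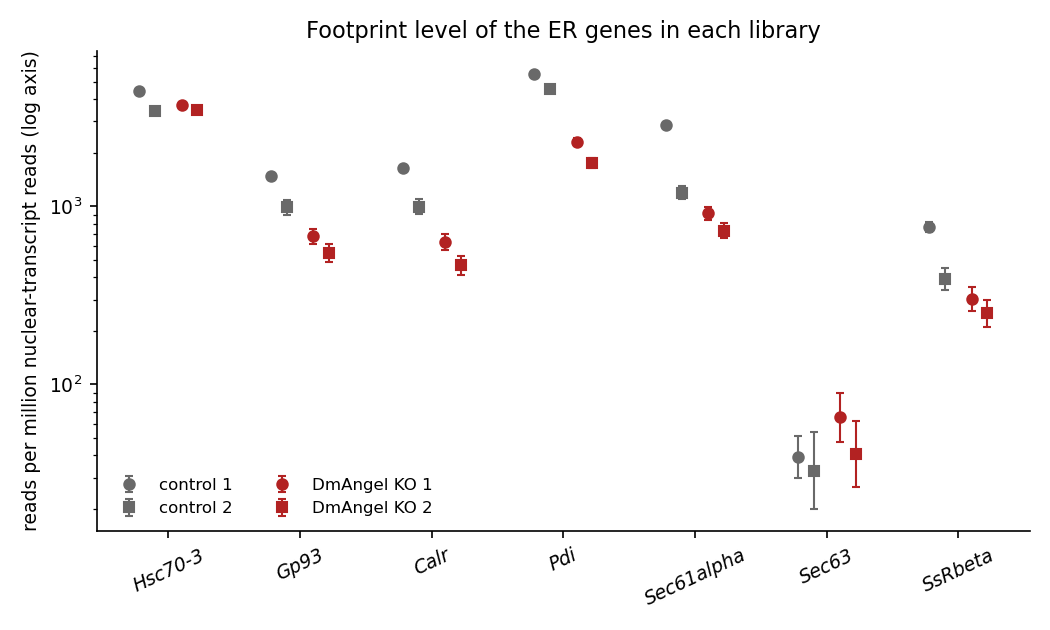
RPM on nuclear transcripts (log axis) for the 7 ER genes, with control libraries in grey and DmAngel KO libraries in red, circles for replicate 1 and squares for replicate 2, and bars for 95% Wilson intervals, which cover counting error only. Both DmAngel KO libraries lie below both controls for Gp93, Calr, Pdi, Sec61alpha and SsRbeta, the groups overlap for Hsc70-3, and Sec63 lies far below the other 6 genes in every library and is slightly higher in DmAngel KO, where TMM scaling makes its groups overlap.

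Among the luminal chaperones, Pdi (FBgn0286818, chromosome 3L of BDGP6.54 from 15137738 to 15142840, minus strand) encodes protein disulfide isomerase. It had 5513 and 4549 RPM in control replicates 1 and 2, and 2303 and 1747 RPM in DmAngel KO replicates 1 and 2. Both DmAngel KO libraries lay well below both controls. The edgeR log2 fold change was -2.01 ± 0.41 (standard error), with an adjusted p of 0.00817. Calr (FBgn0005585, chromosome 3R from 9628691 to 9630851, minus strand), which encodes the calcium-binding lectin chaperone calreticulin, had 1644 and 998 RPM in control and 634 and 467 RPM in DmAngel KO. The groups did not overlap, although the control libraries were themselves 1.65-fold apart. In edgeR its log2 fold change came to -1.96 ± 0.40 (standard error) with an adjusted p of 0.00722. Gp93 (FBgn0039562, chromosome 3R from 27948711 to 27952151, plus strand) encodes the Hsp90 of the ER, and had 1473 and 987 RPM in control against 679 and 546 RPM in DmAngel KO. Again no DmAngel KO library reached the lower control. The edgeR log2 fold change was -1.70 ± 0.38 (standard error), with an adjusted p of 0.0127.

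Hsc70-3 (FBgn0001218, chromosome X from 11801696 to 11807117, minus strand), the fly BiP, did not pass the test, and it passed under 2 of 17 alternatives, a library size from all entries and a fit with the replicate block. It had 4425 and 3413 RPM in control and 3716 and 3455 RPM in DmAngel KO, so that both DmAngel KO values lay between the controls. The group means were 3919 ± 716 (SD, n = 2) and 3586 ± 185 RPM (SD, n = 2). After TMM scaling both DmAngel KO libraries were below both controls, and edgeR gave -0.81 ± 0.40 (standard error) as the log2 fold change, at an adjusted p of 0.208. Whether its change differed from those of the other chaperones was not tested, beyond the ratios within each library given further on.

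Of the 3 membrane components, Sec61alpha and SsRbeta fell and Sec63 was not called. Sec61alpha (FBgn0086357, chromosome 2L from 6477182 to 6480575, minus strand) encodes the pore-forming subunit of the translocon and had 2879 and 1195 RPM in control, and 916 and 732 RPM in DmAngel KO. The controls differed 2.41-fold, the widest gap between control replicates among the 7 genes, and the lower control was still above both DmAngel KO libraries. Relative to the median gene the edgeR log2 fold change was -2.02 ± 0.46 (standard error), and the adjusted p was 0.0143. SsRbeta (FBgn0011016, chromosome 3L from 16129617 to 16130983, plus strand), the beta subunit of the signal sequence receptor (translocon-associated protein complex) beside the channel, had 765 and 392 RPM in control and 302 and 251 RPM in DmAngel KO. The controls again differed, by 1.95-fold, without reaching the DmAngel KO values. In edgeR its log2 fold change came to -1.76 ± 0.40 (standard error) with an adjusted p of 0.0136.

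Sec63 (FBgn0035771, chromosome 3L from 7360561 to 7364366, plus strand) encodes the J-domain protein that recruits BiP to the translocon. It was the rarest of the 7, with 52 and 15 reads in the controls, against 37 and 21 in the knockouts, or 39.2, 32.8, 65.3 and 40.5 RPM. On the RPM scale both DmAngel KO libraries were above both controls, by a margin that the counting intervals of single libraries span, and after TMM scaling the groups overlapped. The edgeR log2 fold change was -0.16 ± 0.42 (standard error), with an adjusted p of 0.834, and its sign changed with the scaling, to 0.54 without TMM factors.

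On RPM, 5 of the 7 genes had both DmAngel KO libraries below both controls, against 10.4% of all genes tested, and 1, Sec63, had both above, against 57% of all genes. On TMM-scaled values 6 of the 7 were below, against 27.9%. The median log2 fold change of the 7 genes was -1.76 and that of all genes tested 0.01. Ranked from the lowest log2 fold change among the 3003 genes, Pdi stood at 112, Sec61alpha at 113, Calr at 117, SsRbeta at 138 and Gp93 at 151, with Hsc70-3 at 540 and Sec63 at 1265. All 7 genes were higher on RPM in control replicate 1 than in control replicate 2, by 1.20-fold (Sec63) to 2.41-fold (Sec61alpha), and in DmAngel KO replicate 1 than in replicate 2, by 1.08-fold (Hsc70-3) to 1.61-fold (Sec63).

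The size of the falls and the number of calls depended on the scaling. Without TMM factors the median of all genes moved to 0.70, the split over all genes turned from 210 lower and 125 higher to 117 (3.9%) lower and 735 (24.5%) higher, and 3 of the 7 ER genes were still called lower: Calr (-1.26), Pdi (-1.31) and Sec61alpha (-1.31). With the cytosolic ribosomal protein genes as library size the median was 0.56, the calls over all genes were 81 lower and 255 higher, and none of the 7 ER genes was called by edgeR, with adjusted p between 0.0861 and 0.189 for the same 5 genes and an unadjusted p under 0.05 for 4 of them. With the reads on all entries, mtDNA included, as library size the median was -1.42, 1914 genes were lower and 39 higher, and all 7 ER genes were called lower. Relative to the median of all genes, the log2 fold change of Pdi lay between -2.33 and -1.63 over 17 alternatives, that of Calr between -2.46 and -1.57, and that of Hsc70-3 between -1.18 and -0.43. Without DmAngel KO replicate 2, none of the 7 was called by edgeR (5 with an unadjusted p under 0.05), with log2 fold changes of -1.99 for Sec61alpha, -1.96 for Pdi, -1.90 for Calr, -1.78 for SsRbeta and -1.69 for Gp93. Without DmAngel KO replicate 1 the calls of Gp93 (adjusted p = 0.0727, edgeR) and Pdi (adjusted p = 0.0727) were lost. In these fits the lone DmAngel KO library is assumed to vary like the controls.

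**Figure D2:**
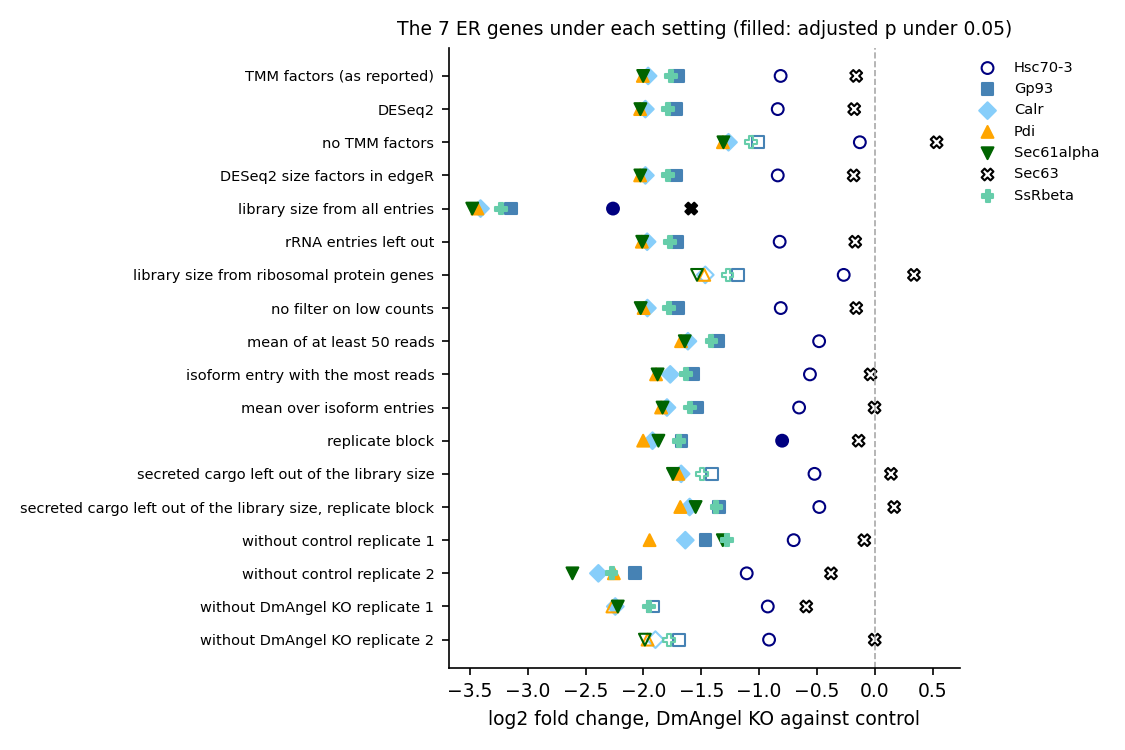
Log2 fold change, DmAngel KO against control, of each of the 7 ER genes (marker shapes) as reported and under each of 17 alternatives, filled where the adjusted p was under 0.05. Pdi, Calr, Sec61alpha, SsRbeta and Gp93 stay below 0 throughout, Hsc70-3 is past the threshold under 2 alternatives, and Sec63 lies on both sides of 0.

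The total over the 7 genes depends on the reads it is divided by, and is given here for nuclear-transcript reads and for all reads. Together the 7 genes held 1.67% (95% Wilson interval 1.65 to 1.70) and 1.16% (1.13 to 1.19) of nuclear-transcript reads in control, and 0.862% (0.838 to 0.886) and 0.724% (0.701 to 0.747) in DmAngel KO. As shares of all reads, mtDNA included, these were 0.533% and 0.295% in the controls, against 0.0597% and 0.0456% in the knockouts. Both totals were lower in both DmAngel KO libraries than in either control.

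Shares within that total, and ratios between the 7 genes within a library, do not depend on any scaling. The shares of Hsc70-3, Gp93, Calr, Pdi and Sec63 did not overlap between the groups, while those of Sec61alpha and SsRbeta did. Hsc70-3 and Sec63 had higher shares in the knockouts, and Gp93, Calr and Pdi lower ones. The shares of a library add up to the whole, so a higher share of 1 gene lowers the others, and they are not separate observations. How often shares within other sets of genes separate in this way was not tested. Hsc70-3 and Pdi were the largest shares in every library. Hsc70-3 took 26.4% and 29.5% of the reads on the 7 genes in control, and 43.1% and 47.7% in DmAngel KO. Pdi took 32.9% and 39.3% in the controls, against 26.7% and 24.1% in the knockouts, so that Pdi led in both controls and Hsc70-3 in both knockouts. For each Pdi read there were 0.803 and 0.750 Hsc70-3 reads in the controls, against 1.61 and 1.98 in the knockouts. For each Gp93 read there were 3.01 and 3.46 Hsc70-3 reads in the controls, against 5.47 and 6.33 in the knockouts. The groups did not overlap in either ratio, and with 2 libraries against 2 an exact permutation test of a ratio cannot give a two-sided p below 0.333. Among the other pairs, Gp93 reads for each Calr read were 0.896 and 0.989 in the controls, against 1.07 and 1.17 in the knockouts, and Sec61alpha reads for each SsRbeta read were 3.76 and 3.05 against 3.04 and 2.92. The groups did not overlap in these 2 ratios either, although they moved far less than the ratios with Hsc70-3. For Sec61alpha and SsRbeta the gap was narrow, from 3.05 in control replicate 2 to 3.04 in DmAngel KO replicate 1. These 2 values rested on 179 and 171 SsRbeta reads, so the separation may be counting error. Pdi reads for each Calr read were 3.35 and 4.56 in the controls, against 3.64 and 3.74 in the knockouts, and overlapped. Sec61alpha reads for each Sec63 read went from 73.4 and 36.4 to 14.0 and 18.0, on the low Sec63 counts given above.

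**Figure D3:**
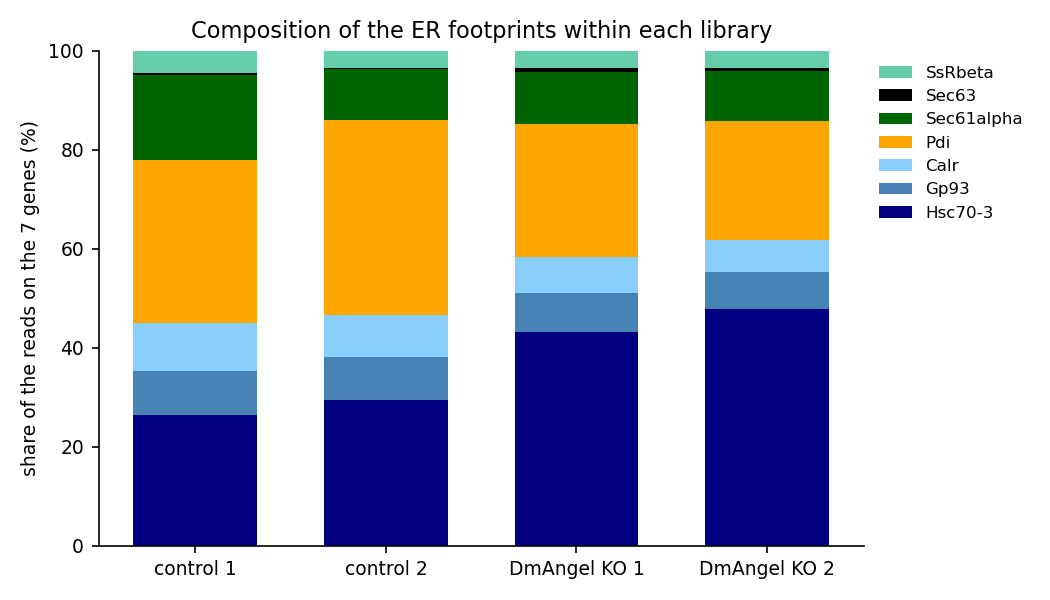
Share of each of the 7 ER genes in the reads on all 7 together (%), as stacked bars for the 2 control and 2 DmAngel KO libraries. Hsc70-3 makes up 26.4% and 29.5% in the controls, against 43.1% and 47.7% in the knockouts, while Pdi is 32.9% and 39.3% in the controls, against 26.7% and 24.1% in the knockouts.

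Levels were compared between genes as RPM per kilobase of coding sequence. In control, Pdi was the highest at 3705 and 3057, followed by Hsc70-3 at 2249 and 1734. Sec61alpha (2016 and 837), Calr (1350 and 819) and SsRbeta (1343 and 687) overlapped each other, and Sec61alpha overlapped Hsc70-3. Gp93 came next at 624 and 418, below all of these, and Sec63 was lowest at 17.4 and 14.5. In DmAngel KO, Hsc70-3 was highest at 1888 and 1756, above Pdi at 1548 and 1174. Sec61alpha (641 and 512), SsRbeta (529 and 440) and Calr (520 and 384) formed an overlapping group, above Gp93 at 288 and 231 and Sec63 at 28.9 and 17.9.

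The count tables list isoforms separately, with 5 entries for Hsc70-3, 2 each for Calr, Pdi and Sec61alpha, and 1 each for Gp93, Sec63 and SsRbeta, and the isoforms of a gene had coding sequences of one length. Reads were spread almost evenly over them. The 2 entries of Calr held 46.3% to 53.7% of its reads in the 4 libraries, those of Pdi 48.2% to 51.8% and those of Sec61alpha 47.2% to 52.8%. For Hsc70-3 one entry (FBtr0073608) held 23.5% to 28.4% and the other 4 held 16.8% to 19.8% each. In a fit over 3270 entries, of which 203 (6.21%) were called lower, all 8 entries of Gp93, Calr, Pdi, Sec61alpha and SsRbeta were called lower (adjusted p between 0.0162 and 0.0385, edgeR), and neither the 5 Hsc70-3 entries (adjusted p between 0.182 and 0.378) nor the Sec63 entry (0.996) were.

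Other genes of the same pathway were read from lists that did not include the 7. Of 16 genes of the translocon and of protein targeting, 9 were tested, and the median log2 fold change was -1.28, against 0.01 over all genes. Of the 9, 4 fell, against 6.99% of all genes called lower, and none rose. TRAM, the translocating chain-associated membrane protein, had 542 and 238 RPM in the controls, against 189 and 147 in the knockouts (edgeR log2 fold change -1.92, adjusted p = 0.0123). Tapdelta, the delta subunit of the complex that holds SsRbeta, had 515 and 208 RPM in the controls, against 184 and 141 in the knockouts (-1.86, adjusted p = 0.016). The controls of both genes were more than 2 times apart, as they were for Sec61alpha, and the lower control was still above both DmAngel KO libraries. l(1)G0320 (1045 and 788 RPM against 528 and 357) and CG5885 (405 and 278 against 185 and 90.7) were the other 2 that fell, with log2 fold changes of -1.75 and -2.01 (adjusted p = 0.00949 and 0.00657, edgeR). The channel subunit Sec61beta, at -0.53 (adjusted p = 0.434), and Trp1, the Sec62 partner of Sec63, at -0.13 (0.851), were not called. Nor were SrpRbeta (-1.28), SrpRalpha (-0.43) and Srp54k (0.44). On RPM Trp1 had 68.7 and 59.1 in the controls, against 95.3 and 94.6 in the knockouts. Both DmAngel KO libraries were thus above both controls, as for Sec63 and for 57% of all genes tested. Without TMM factors 2 of the 9 were called lower, against 3.9% of all genes, and with ribosomal protein genes as library size none was.

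Signal peptidase and the oligosaccharyltransferase cut and glycosylate chains as they enter the lumen. All 11 of their genes were tested, and all 11 log2 fold changes were below 0 with a median of -1.08. The test called 2 of them lower, against 6.99% of all genes, and 9 of the 11 had an unadjusted p under 0.05 (edgeR). With the replicate block 6 of the 11 were called lower, where 377 of all 3003 genes were. Ost48, an oligosaccharyltransferase subunit, had 239 and 184 RPM in the controls, against 127 and 125 in the knockouts (edgeR log2 fold change -1.43, adjusted p = 0.0182). CG33303, annotated with the synonym OST, had 374 and 306 against 273 and 195 RPM (-1.24, adjusted p = 0.0379). Stt3B, a catalytic subunit with the highest mean RPM of the list over the 4 libraries, had 498 and 228 RPM in the controls, against 245 and 257 in the knockouts (-1.23, adjusted p = 0.0715), so that its groups overlapped. Without TMM factors neither of the 2 calls held, and 9 of the 11 were below 0.

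Among 18 other luminal chaperones and folding enzymes, 17 were tested and 14 had log2 fold changes below 0. Of the 17, 1 fell, a share near the 6.99% of all genes called lower. By edgeR 10 of the 17 had an unadjusted p under 0.05, in either direction. The median of the 17 was -0.81, close to the value of Hsc70-3. The gene that fell was ERp60, a further disulfide isomerase, with 998 and 954 RPM in the controls, against 644 and 618 in the knockouts (edgeR log2 fold change -1.31 ± 0.35 standard error, adjusted p = 0.0298). Its replicates were close in both groups. The call was lost without TMM factors and with ribosomal protein genes as library size. Plod, a collagen lysyl hydroxylase, had 516 and 396 RPM against 755 and 570 (-0.16, adjusted p = 0.808). At the high end was Sil1, an exchange factor for BiP, with 27.2 and 17.5 RPM in the controls, against 109 and 79.1 in the knockouts (1.31, adjusted p = 0.0639). It was named after its values were seen. Without TMM factors the median of this list was -0.11, and 1 of the 17 was called higher, against 24.5% of all genes. With the replicate block 4 of the 17 were called lower and 1 higher, where 377 of all 3003 genes were lower and 251 higher.

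The unfolded protein response raises ER chaperones through the sensors Ire1, PEK and Atf6, and ER-associated degradation removes misfolded chains. None of these 11 genes was called in either direction by edgeR or DESeq2, and the median was 0.17. That median covered both signs, with 6 log2 fold changes above 0 and 5 below. Of the response genes, PEK (1.07), Ire1 (0.62), Xbp1, Atf6 (0.50) and crc (0.17) were above 0. Of the degradation genes, Der-1 (-1.22), sip3 (-1.02), Der-2 (-0.66), Hrd3 (-0.62) and Herp (-0.48) were below 0. The 3 with an unadjusted p under 0.05 were PEK, Der-1 and sip3. This split was seen after the fact and was not tested. Xbp1, the transcription factor activated by Ire1, had 45.3 and 76.6 RPM in the controls, against 129 and 145 in the knockouts (log2 fold change 0.54, adjusted p = 0.395). TER94, the ATPase that extracts substrates for degradation, had 64.9 and 59.1 against 162 and 67.6 RPM (0.18, adjusted p = 0.818). Both were higher on RPM in both DmAngel KO libraries, as were 57% of all genes. Without TMM factors 3 of the 11 were called higher, a share near the 24.5% of all genes called higher there. With the replicate block edgeR called 1 of the 11 lower, where 377 of all 3003 genes were.

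**Figure D4:**
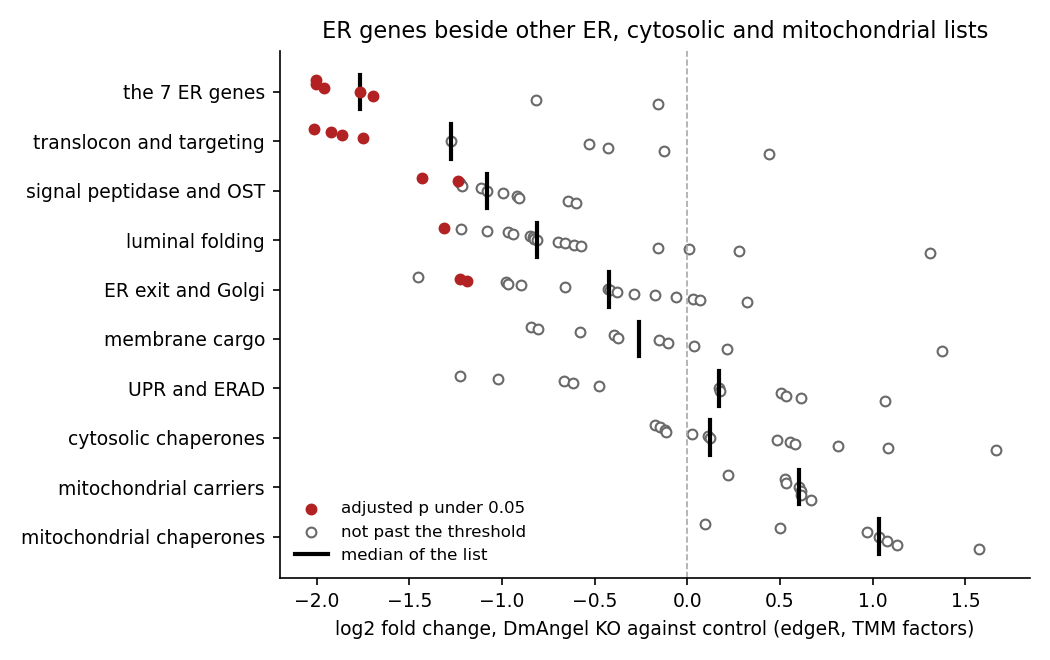
Log2 fold change, DmAngel KO against control (edgeR, TMM factors), of every tested gene in the 7 ER genes and 9 other lists, with called genes filled in red and the median of each list as a black bar. The medians run from -1.76 for the 7 ER genes through -1.28 for the translocon and targeting list to 1.03 for the mitochondrial chaperones, and without TMM factors the whole scale moves up by about the 0.70 of the median gene.

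Downstream of the ER, 16 of 20 genes of ER exit and Golgi transport were tested, with a median of -0.42. Of these 2 fell, against 6.99% of all genes called lower. These were CHOp24 (137 and 98.5 RPM in control, 82.9 and 81.1 in DmAngel KO, edgeR log2 fold change -1.22, adjusted p = 0.0468) and bai (140 and 118 against 111 and 73.4 RPM, -1.19, adjusted p = 0.0494), both p24 cargo receptors. Neither call held without TMM factors or in DESeq2. By edgeR 6 of the 16 had an unadjusted p under 0.05. With the replicate block 3 of the 16 were called lower, where 377 of all 3003 genes were. Sar1, the GTPase of COPII vesicles, was at -0.06 (adjusted p = 0.932), and KdelR, the receptor that returns escaped luminal chaperones, at -0.90 (0.131).

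In a list of genes taken as cargo of the secretory pathway, 12 fell and 15 of those tested were not called, where 6.99% of all genes were called lower. The 28 genes, mostly of secreted proteins, held 42.5% and 27.2% of nuclear-transcript reads in the controls, against 17.7% and 16.1% in the knockouts. The median log2 fold change was -0.74 over the 27 tested, and none was called higher. Whether each gene product is itself secreted was not checked, and Mtp (-1.64), Fbp1 (-9.48) and Fbp2 (-7.27) were among those that fell. The lower total rested mostly on 3 larval serum protein genes, Lsp1alpha, Lsp1beta and Lsp1gamma. They held 72.2% and 59.2% of the cargo reads in the controls, against 20.9% and 14.5% in the knockouts. Without them the other 25 genes held 11.8% and 11.1% of nuclear-transcript reads in the controls, against 14.0% and 13.8% in the knockouts, so that both DmAngel KO libraries were then the higher ones. That rise rested on apolpp, whose values are given below. With apolpp left out as well, the remaining cargo genes summed to less in both DmAngel KO libraries than in either control. Lsp1beta, a larval serum storage protein of the fat body, had 118366 and 63264 RPM in the controls, against 19925 and 12287 in the knockouts (-3.20, adjusted p = 0.00761, edgeR). The lipid carrier apolpp had 52643 and 40908 against 82306 and 84408 RPM (0.15, adjusted p = 0.883), and was not called. For every 100 reads on this list there were 3.94 and 4.25 reads on the 7 ER genes in the controls, against 4.87 and 4.50 in the knockouts. Without the 3 Lsp1 genes in the list the ratio turned, with 14.2 and 10.4 in the controls, against 6.16 and 5.26 in the knockouts. For every 100 reads on the translocon and targeting list there were 603 and 676 reads on the 7 ER genes in the controls, against 621 and 713 in the knockouts, and the groups overlapped. With the secreted cargo left out of the library size, an alternative chosen after seeing the data, Calr, Pdi and Sec61alpha were called lower and Gp93 and SsRbeta were not, whereas all 5 were called when the replicate block was added (adjusted p = 0.0177 for Gp93 and 0.0279 for SsRbeta, edgeR). A list of 10 genes of ER-inserted membrane proteins that remain in the ER or reach the plasma membrane had no call by edgeR or DESeq2 (1 with an unadjusted p under 0.05) and a median of -0.26. Without TMM factors edgeR called 1 of them higher, against 24.5% of all genes. SERCA, the calcium pump of the ER, had 718 and 678 RPM in the controls, against 847 and 882 in the knockouts (-0.37, adjusted p = 0.518).

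Markers of several larval tissues also differed between the groups. Over all genes tested, 6.99% were called lower and 4.16% higher. Of 7 fat body markers 6 fell, and the list summed to 36.5% and 20.6% of nuclear-transcript reads in control and to 11.9% and 10.8% in DmAngel KO. Fbp1 had 4105 and 1277 reads in the controls, against 4 and 3 in the knockouts, Lsp2 had 2899 and 511 against 3 and 0, and apolpp was not called. All 7 of these markers were also in the secreted cargo list. Of 8 salivary gland markers 5 were tested and 3 fell, and the list summed to 0.0224% and 0.0475% in the controls, against 0.0132% and 0.0170% in the knockouts. The glue genes Sgs3 (74 and 65 reads in control), Sgs7 (69 and 54), Sgs4 and Sgs8 were at 0 in both DmAngel KO libraries, whereas ng1 (31 and 31 reads against 32 and 53, log2 fold change 0.24) and ng2 (30 and 22 against 41 and 32, 0.33) were not called. Of 8 midgut markers 3 fell (sum 1.02% and 0.731% against 0.830% and 0.430%), and of 5 epidermis markers tested 2 fell, Lcp1 and Lcp2 (sum of all 6 0.731% and 0.849% against 0.795% and 0.552%). None of 9 muscle markers (0.314% and 0.368% against 1.07% and 0.569%) or 7 hemocyte markers (1.21% and 2.08% against 1.65% and 1.83%) was called by edgeR or DESeq2, with 1 and 0 at an unadjusted p under 0.05. Of the muscle markers 3 were called higher by edgeR without TMM factors, where 24.5% of all genes were. With the replicate block 1 muscle marker was called higher and 1 hemocyte marker lower, where 251 of all 3003 genes were higher and 377 lower. The part of these tissue markers in the values of the 7 ER genes was not tested.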

How the data were processed

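The authors merged read pairs (BBMerge), trimmed linker (BBDuk), removed reads on fly non-coding RNA, aligned the remainder with Bowtie2 to the sense strand of Ensembl transcripts and deposited raw read counts per transcript, without normalization. The labels also name bedtools and the build BDGP6. How reads matching several isoforms were shared is not given in the sources used here. Of 34882 nuclear entries, 34713 matched the BDGP6.54 annotation, which supplied symbols and coordinates, and counts were summed per gene. Nuclear rRNA entries held 2.05% to 4.08% of nuclear-transcript reads.

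Genes passing filterByExpr were tested with edgeR 4.0.16 in R 4.3.3 (glmQLFit, glmQLFTest, TMM factors on nuclear-transcript reads, no replicate block) and Benjamini-Hochberg adjustment over all 3003 genes at 0.05. Standard errors were derived from the F statistic. The same test was run on isoform entries. DESeq2 1.42.0 was an alternative, as were other scalings, filters and isoform treatments, a replicate block and leaving out each library, 17 in all. Scripts were tested on simulated data. Shares have 95% Wilson intervals, and reads carry no molecular identifiers, so that intervals and the 3-read floor cover counting error only.

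The 7 genes, the lists and the tests were chosen with earlier results of these data known. Named from each list were genes past the threshold (at most the 5 with the lowest adjusted p) and the 2 with the highest mean RPM, where a value added to the description, plus the 5 genes nearest in pattern. Outside this rule, Sec61beta, Trp1, SrpRbeta, SrpRalpha, Srp54k, Sil1, Mtp, Sgs4, Sgs8 and the other genes of the unfolded protein response and degradation list were also named. No sequences were used here.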

Additional observations from a re-analysis of the deposited data

How the results depend on the processing

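All 5 lower calls also came from DESeq2. The ER genes called lower were 3 without TMM factors, 0 with ribosomal protein genes as library size, 3 with the secreted cargo left out (an alternative chosen after seeing the data) and 0 to 5 on leaving out a library. Log2 fold changes that lost the threshold were, without TMM factors, Gp93 -1.01 and SsRbeta -1.07; with ribosomal protein genes, Gp93 -1.18, Calr -1.47, Pdi -1.47, Sec61alpha -1.54 and SsRbeta -1.27; and with the cargo left out, Gp93 -1.41 and SsRbeta -1.49. On leaving out a library they ranged from -2.07 to -1.46 (Gp93), -2.39 to -1.64 (Calr), -2.27 to -1.95 (Pdi), -2.61 to -1.31 (Sec61alpha), -2.28 to -1.28 (SsRbeta) and -0.59 to 0.0004 (Sec63). Sec63 was 0.54 without TMM factors, 0.34 with ribosomal protein genes, 0.14 with the cargo left out and 0.17 with the replicate block as well. With all entries as library size Hsc70-3 (-2.26) and Sec63 (-1.59) passed. The cause of these shifts was not tested. Over all genes, lower and higher calls were 117 and 735 without TMM factors, 1914 and 39 with all entries, 81 and 255 with ribosomal protein genes, 123 and 216 with the cargo left out and 100 and 78 among genes with a mean of at least 50 reads. DESeq2 gave 68 higher, the top isoform 137 lower, and leaving out a library 119 to 436 lower. With the replicate block, 377 were lower and 251 higher, and Hsc70-3 (-0.80, adjusted p = 0.0198, edgeR) became a sixth ER call. With the cargo left out and the block there were 274 higher and 5 ER calls. Neither the labels nor the methods say what the replicate number marks. The replicate differences of the groups correlated at 0.18 across 3003 genes. At a mean of at least 50 reads Sec63 was not tested. Depth limits Sec63 most, at 15 to 52 reads per library.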

Other observations

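Chaperones of other compartments were read from the same fit, and no test compared them with the ER genes. Of 18 cytosolic chaperones 13 were tested and none was called in either direction by edgeR or DESeq2 (3 with an unadjusted p under 0.05), with a median log2 fold change of 0.12. By edgeR 4 of the 13 were called higher without TMM factors, where 24.5% of all genes were, 2 with the replicate block and 2 with ribosomal protein genes as library size. Under the last 2 settings 251 and 255 of all 3003 genes were called higher. Hsc70-4, the abundant cytosolic Hsp70, had 241 and 158 RPM in the controls, against 662 and 483 in the knockouts (0.81, adjusted p = 0.162, edgeR), and Hsp83, the cytosolic Hsp90, had 331 and 118 against 390 and 268 RPM (-0.17, adjusted p = 0.833). All 7 mitochondrial chaperone and prohibitin genes had log2 fold changes above 0, with a median of 1.03 and no call by edgeR or DESeq2 (4 with an unadjusted p under 0.05), and edgeR called 6 higher without TMM factors and 2 each with the replicate block and with ribosomal protein genes as library size. Hsp60A, the mitochondrial chaperonin, had 101 and 103 RPM in the controls, against 325 and 363 in the knockouts (1.07, adjusted p = 0.06), and Hsc70-5, the mitochondrial Hsp70, had 121 and 89.7 against 245 and 239 RPM (0.50, adjusted p = 0.364). Of 9 genes of mitochondrial membranes and carriers 7 were tested, none was called by edgeR or DESeq2 (0 with an unadjusted p under 0.05) and the median was 0.60, while without TMM factors edgeR called 4 of the 7 higher at a median of 1.29, against 0.70 over all genes. Among 78 cytosolic ribosomal protein genes tested, 2 fell and 1 rose, with a median of -0.64, where 6.99% of all genes were called lower and 4.16% higher. Of the 78, 74 had log2 fold changes below 0 and 14 had an unadjusted p under 0.05 (edgeR). With the replicate block 7 were called lower and 1 higher, where 377 of all 3003 genes were lower and 251 higher.

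The 5 genes whose pattern over the 4 libraries was nearest to that of the 7 ER genes summed, among 849 genes with a mean of at least 50 reads, were loj, epsilonTry, tobi, Hmu and Ldsdh1. The distance between centred log2 RPM values was 0.06 for loj, 0.09 for epsilonTry, 0.11 for tobi, 0.14 for Hmu and 0.16 for Ldsdh1. The 7 genes themselves lay at 0.18 (Gp93) to 1.39 (Sec63) from their own sum. For loj the values were 100 and 65.6 RPM in the controls, against 51.2 and 42.5 in the knockouts. All 5 were called lower by edgeR, with log2 fold changes from -1.54 to -1.39 and adjusted p from 0.0164 to 0.0258. The choice of genes fixed this direction.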
